A study of Mus musculus with 3 samples.

Results

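Translation initiation and elongation factors were described in ribosome-bound RNA of the cortex-amygdala transition zone (CxA) of adult mice. The factors were taken by gene symbol, as every listed name that starts with Eif or Eef followed by a digit, except Eif2s3y, which gave 63 genes of 32532 listed. The name rule also takes in regulators of the factors, such as eIF2 kinases and eIF4E-binding proteins. All mice belonged to 1 group of untreated controls of the TRAP (translating ribosome affinity purification) line OI82, in which Lypd1 regulatory DNA drives EGFP fused to ribosomal protein L10a, so that any cell with an active Lypd1 transgene can contribute RNA. The 3 immunopurified libraries are called replicates 1, 2 and 3, and values are mean ± SD over them (n = 3).

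Protein synthesis on cytosolic ribosomes starts when eIF2 brings the initiator tRNA to the small subunit and the eIF4F complex recruits that subunit to the capped end of the messenger RNA. eIF1, eIF1A and eIF3 assist scanning for the start codon, and eIF5 and eIF5B then allow the large subunit to join. During elongation eEF1A delivers aminoacyl-tRNAs, the eEF1B complex recharges eEF1A with GTP, eEF2 moves the ribosome along and eIF5A keeps peptide bonds forming. Phosphorylation of eIF2 and of eEF2 slows these steps, and in neurons such control operates in dendrites as well as in the cell body.

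Assigned counts totalled 18526251, 24690301 and 8668527 in replicates 1, 2 and 3, so 3 counts, the most that a count of 0 was read as, correspond to 0.162, 0.122 and 0.346 CPM, which divides a gene's counts by its library's assigned total. That limit covers counting error only. All 8 neuronal markers were detected, with summed levels of 9493 to 17652 CPM. Markers of other cells were also present: all 8 astrocyte markers (1340 to 2252 CPM summed) and 7 of 8 oligodendrocyte markers (236 to 425 CPM). Of the endothelial markers 6 of 8 were detected (53.6 to 97.1 CPM), and of the microglial markers 4 of 8 (22.2 to 46.5 CPM). The detected microglial markers were P2ry12, Csf1r, Aif1 and Itgam. Of the others, Cx3cr1 measured 19.8, 0.486 and 2.88 CPM in replicates 1, 2 and 3, and Tmem119 1.19, 0.122 and 1.38 CPM. C1qa and C1qb were below 1 CPM in each library. Lypd1 itself measured 232, 601 and 272 CPM in replicates 1, 2 and 3. Input tissue RNA was not analysed here, so no value is an enrichment, and a larger share of cells of a type cannot be told apart from more RNA per cell.

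Nearly every factor was present in the captured RNA. Detection, defined as 1 CPM or more in each library, was reached by 59 of the 63 factors, against 39.3% of all listed genes. Together the factors took 0.696%, 0.780% and 0.520% of the assigned counts in replicates 1, 2 and 3, which is 129006, 192604 and 45058 counts. To compare genes with each other, CPM was divided by the length of a gene's annotated exons in kilobases. The median of all 63 factors was 12.4 ± 2.65 CPM per kb, and that of the 13600 genes with a known length and a mean of 1 CPM or more was 4.60 ± 0.36 CPM per kb. The factor median was the higher in each library, with 12.9 against 4.59 in replicate 1, 14.7 against 4.25 in replicate 2 and 9.49 against 4.97 in replicate 3.

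The 4 factors short of detection were the oocyte-type cap-binding protein gene Eif4e1b, 2 genes of eIF4E-binding proteins and a copy of an eIF3 subunit gene. Eif4e1b had a single count, in replicate 2. Eif4ebp3 had 0, 0 and 2 counts in replicates 1, 2 and 3. Eif4ebp1 measured 0.702, 0.567 and 0.808 CPM, and Eif3j2 measured 0.648, 0.486 and 0.346 CPM. Of the exon bases of Eif4ebp3, 67.3% lie under exons of another GENCODE gene on the same strand. A read there could not be assigned to 1 of them if the annotation used for counting, which is not given, held both. Of the 50-base words of Eif3j2, 8.15% are unique to it, the others being shared mostly with Eif3j1.

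**Figure D1:**
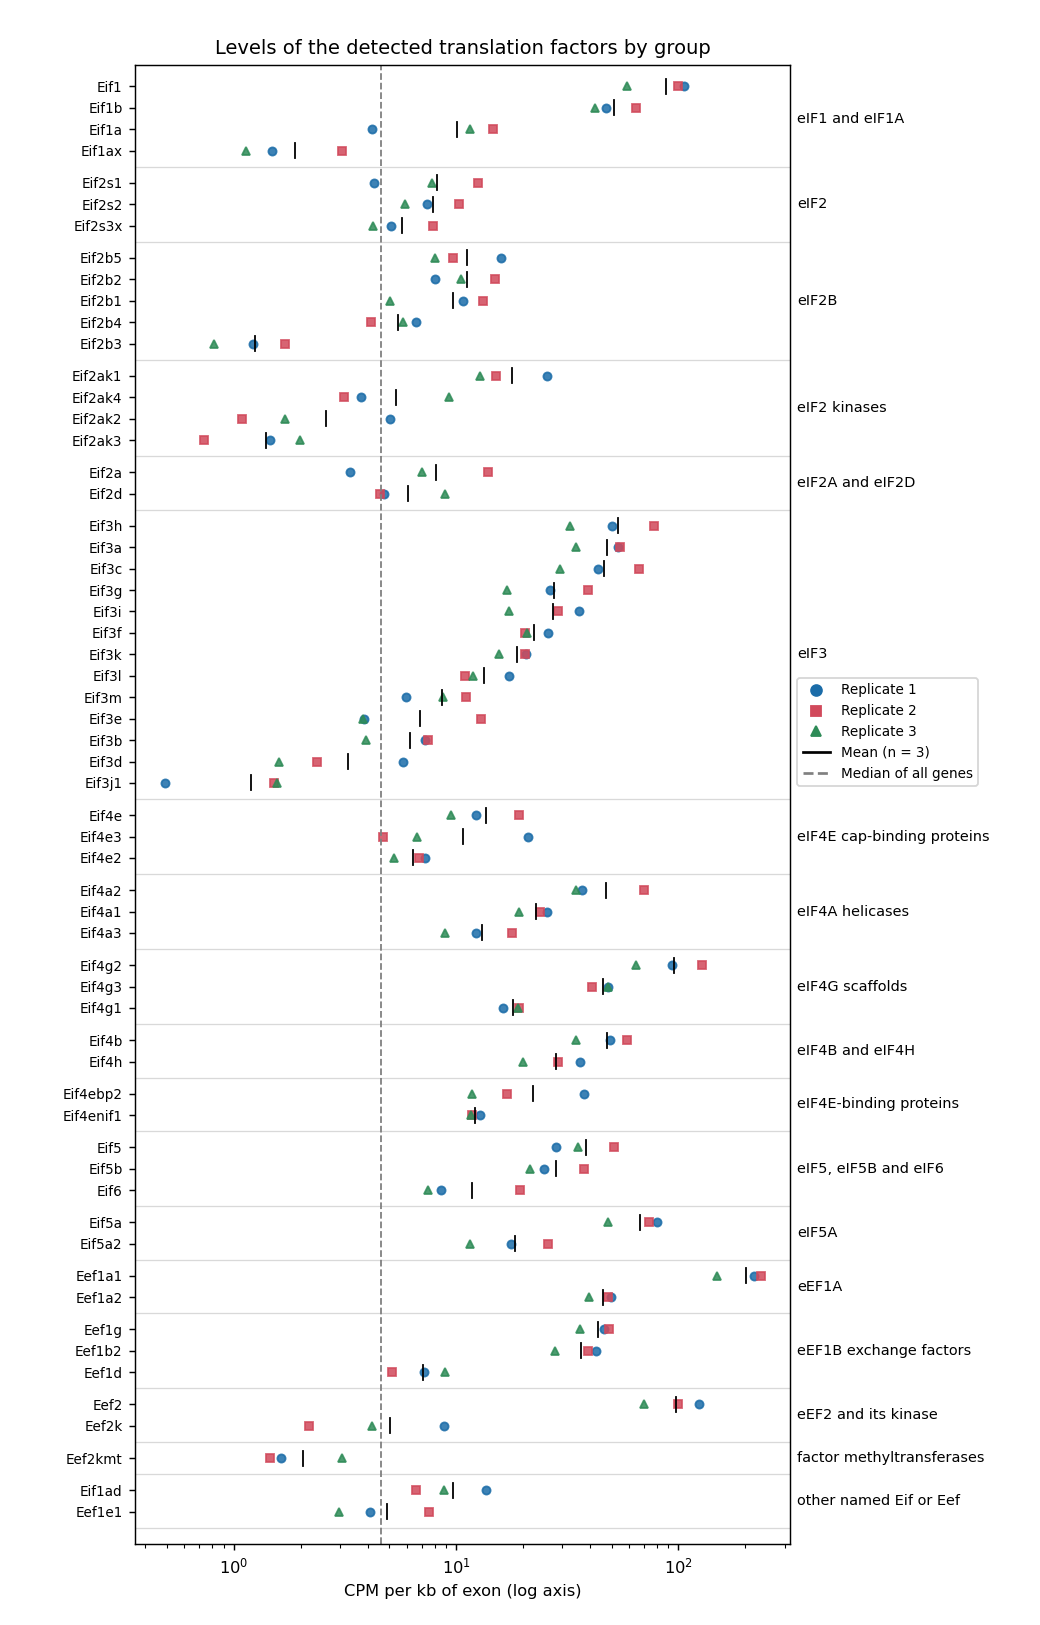
CPM per kb of exon (log axis) of the 59 detected factors, ordered by mean within each group, with 1 symbol per library and a bar at the mean of 3 libraries. Eef1a1 lies farthest right at 200.3 CPM per kb on average, Eif3j1 farthest left at 1.19, and the dashed line marks the median of all genes at 4.60.

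Among elongation factors, the gene of the widely expressed eEF1A isoform stood above the gene of the isoform known from neurons and muscle. Eef1a1, on the minus strand of chromosome 9 of GRCm38 at chr9:78478449-78489151, measured 544, 584 and 370 CPM in replicates 1, 2 and 3. Eef1a2, on the minus strand at chr2:181147653-181157014, measured 103, 101 and 82.3 CPM. Both were lowest in replicate 3. Per kb of exon Eef1a1 had the highest mean of all 63 factors, 200.3 ± 45.5 CPM per kb, against 45.8 ± 5.54 for Eef1a2, and the libraries of the pair did not overlap. Within libraries, and with 0.5 counts added to each gene, the log2 difference was 2.11 ± 0.18, a ratio of 4.31, positive in 3 of 3 libraries.

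For each of 13 such pairs the 3 within-library differences were put to an exact permutation test that flips their signs, two-sided. Its smallest possible p with 3 libraries is 0.25, and all 13 pairs gave that p (Benjamini-Hochberg adjusted over the 13 pairs, also 0.25), so the pairs are described by their size, spread and direction.

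Reads of Eef1a1 compete with processed copies of the gene. Of its 50-base words, 59.6% occur in no other annotated gene, and the rest are shared with 20 other genes, 18 of them pseudogenes. Reads that align to more than 1 place were not counted, so the level given for Eef1a1 leaves them out. With exon length reduced to the unique share, the ratio of Eef1a1 to Eef1a2 was 7.23, and with RefSeq-linked exons, those of transcripts that GENCODE ties to a curated RefSeq record, it was 5.99.

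The promoter windows of this pair and of the eIF4A pair described further on are shown because these pairs make the same protein activity from separate genes. Each window runs from 250 bases before to 50 bases after the annotated RefSeq start (GRCm38.p6), is written 5′ to 3′ on the gene's strand, and has in capitals, on either strand, the TATA motif (TATAA), the GC box (GGGCGG) and the CCAAT box (spelled as its name), with none of the marked motifs overlapping another. The windows lie at chr9:78481675-78481974 (minus strand, Eef1a1), chr2:181156966-181157265 (minus strand, Eef1a2), chr11:69672374-69672673 (minus strand, Eif4a1) and chr16:23107218-23107517 (plus strand, Eif4a2).
Eef1a1: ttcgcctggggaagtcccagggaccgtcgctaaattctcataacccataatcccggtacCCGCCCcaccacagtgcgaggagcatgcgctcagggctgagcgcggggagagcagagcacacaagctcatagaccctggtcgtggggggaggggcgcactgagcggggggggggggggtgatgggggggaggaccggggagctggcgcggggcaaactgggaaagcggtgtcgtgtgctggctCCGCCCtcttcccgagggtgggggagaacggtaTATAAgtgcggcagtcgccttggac
Eef1a2: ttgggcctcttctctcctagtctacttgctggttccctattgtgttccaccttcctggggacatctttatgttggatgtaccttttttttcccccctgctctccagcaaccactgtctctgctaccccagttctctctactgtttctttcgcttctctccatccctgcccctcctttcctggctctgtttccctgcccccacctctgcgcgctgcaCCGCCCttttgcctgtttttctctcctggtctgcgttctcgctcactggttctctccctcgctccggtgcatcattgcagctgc
Eif4a1: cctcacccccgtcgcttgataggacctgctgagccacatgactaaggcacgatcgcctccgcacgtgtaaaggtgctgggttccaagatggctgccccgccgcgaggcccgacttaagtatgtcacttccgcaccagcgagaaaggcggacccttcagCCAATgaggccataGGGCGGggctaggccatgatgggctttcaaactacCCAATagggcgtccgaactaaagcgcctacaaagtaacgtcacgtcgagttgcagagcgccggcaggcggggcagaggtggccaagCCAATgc
Eif4a2: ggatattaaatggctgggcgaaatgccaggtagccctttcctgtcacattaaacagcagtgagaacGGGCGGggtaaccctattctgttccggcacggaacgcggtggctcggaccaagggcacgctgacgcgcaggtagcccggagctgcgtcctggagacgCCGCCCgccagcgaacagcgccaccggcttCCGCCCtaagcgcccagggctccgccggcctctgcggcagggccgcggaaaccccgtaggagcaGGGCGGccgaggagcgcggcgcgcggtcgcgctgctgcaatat
Eef1a1 holds 1 TATA motif and 2 GC boxes, and Eef1a2 holds 1 GC box. Eif4a1 holds 1 GC box and 3 CCAAT boxes, and Eif4a2 holds 4 GC boxes. The TATA motif of Eef1a1, the last CCAAT box of Eif4a1 and the last GC box of Eif4a2 lie within the 50 bases after the annotated start. The other marked motifs lie before it. Of all 32851 windows, 24.9% hold the TATA motif, 35.7% a GC box and 37.4% a CCAAT box. Windows were found for 49 of the 63 factors, 64 windows in all, of which 10.9% hold the TATA motif, 70.3% a GC box and 25% a CCAAT box. GC content of the 4 windows was 66.7% for Eef1a1, 55.0% for Eef1a2, 60.7% for Eif4a1 and 67.7% for Eif4a2.

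The subunits of the eEF1B exchange complex were unequal. Eef1g, the gene of a structural subunit, measured 43.7 ± 6.62 CPM per kb, and Eef1b2, which encodes a subunit that exchanges GDP for GTP, measured 36.5 ± 7.80. Eef1d, the gene of the other exchanging subunit, measured 7.09 ± 1.89. This order, Eef1g over Eef1b2 over Eef1d, held in 3 of 3 libraries. Eef1b2 exceeded Eef1d by 2.38 ± 0.66 on the log2 scale, with 2.57, 2.92 and 1.64 in replicates 1, 2 and 3. The size of this difference depends on the exon length used, with a ratio of 5.19 by all annotated exons and 2.98 by the longest transcript, and the direction was kept in 3 of 3 libraries by both. Only 55.8% of the 50-base words of Eef1g are unique to it, and 5 pseudogenes share the others. Eef1e1, named as a factor but known as a scaffold protein of the aminoacyl-tRNA synthetase complex, measured 13.3, 24.6 and 9.69 CPM.

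Eef2, the gene of the translocase, measured 410, 332 and 232 CPM in replicates 1, 2 and 3, which is 97.7 ± 27.0 CPM per kb. It ranked 2nd of the 63 factors per kb of all annotated exons, and 5th, 4th and 3rd with the longest transcript, RefSeq-linked exons and unique lengths. Eef2 was above Eef1a2 in 3 of 3 libraries, by 1.06 ± 0.25 on the log2 scale. Eef2k, whose kinase phosphorylates eEF2 and slows elongation, measured 65.4, 16.2 and 30.9 CPM, so replicate 1 was 4.05 times replicate 2. Eef2kmt, which encodes an eEF2 methyltransferase, measured 4.37, 3.89 and 8.19 CPM and was highest in replicate 3.

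Of the genes of eIF5A, a factor that carries the modified amino acid hypusine, Eif5a was the more abundant per kb. Eif5a measured 190, 175 and 114 CPM, or 67.3 ± 17.0 CPM per kb. Eif5a2 measured 89.1, 131 and 58.0 CPM, or 18.4 ± 7.27 CPM per kb. The log2 difference was 1.91 ± 0.36, a ratio of 3.76, and positive in 3 of 3 libraries. With the longest transcript of each gene the ratio was 6.22, and the sign was kept in 3 of 3. Replicate 2 had the highest level of Eif5a2 and the smallest difference of the pair, 1.503.

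Among the 4 listed genes of eIF1 and eIF1A, which act in start codon choice, Eif1 was the most abundant per kb and Eif1ax the least. Eif1, which guards the accuracy of start codon choice, measured 221, 209 and 123 CPM, or 87.9 ± 25.6 CPM per kb. Its paralog Eif1b measured 53.4, 72.6 and 47.5 CPM, or 51.4 ± 11.6 CPM per kb. Eif1 exceeded Eif1b by 0.75 ± 0.36 on the log2 scale, with 1.15, 0.63 and 0.47 in replicates 1, 2 and 3. Of the 50-base words of Eif1, 80.8% are unique to it and 17 pseudogenes share others.

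The genes of eIF1A, which binds the decoding site of the small subunit, differed more. Eif1a measured 17.4, 61.3 and 48.0 CPM and the X-linked Eif1ax 7.83, 16.1 and 5.999 CPM. The log2 difference per kb was 2.36 ± 0.92, positive in 3 of 3 libraries, and was 1.49, 2.26 and 3.33 in replicates 1, 2 and 3. Eif1a was low in replicate 1, whereas Eif1ax was high in replicate 2.

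Per kb of all annotated exons the subunits of eIF2 lay close together. Eif2s1, the alpha subunit that carries the regulatory phosphorylation, measured 8.21 ± 4.16 CPM per kb. Eif2s2, the beta subunit, measured 7.85 ± 2.25, and Eif2s3x, the X-linked gamma subunit that binds GTP, 5.73 ± 1.88. In each library the highest subunit was 1.60 to 1.84 times the lowest. Eif2s1 and Eif2s2 were not ordered alike in all libraries, with Eif2s1 the higher in 2 of 3, while Eif2s2 exceeded Eif2s3x in 3 of 3. With RefSeq-linked exons the values were 11.9, 20.9 and 5.99 CPM per kb, so the closeness of the 3 subunits depends on the exon length used. For Eif2s3x, 65.4% of the 50-base words are unique to it, and with unique lengths it measured 8.76 CPM per kb, against 8.71 for Eif2s1 and 8.75 for Eif2s2.

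Its exchange factor eIF2B, which returns eIF2 to the GTP-bound form and is the target of eIF2 phosphorylation, covered a wider range. Eif2b5, the catalytic epsilon subunit, measured 11.2 ± 4.21 CPM per kb, Eif2b2 11.2 ± 3.53 and Eif2b1 9.67 ± 4.19, and these 3 did not differ beyond their spread. Eif2b4 measured 5.51 ± 1.25. Eif2b3, the gamma subunit, was lowest in 3 of 3 libraries at 1.25 ± 0.44 CPM per kb, and it was also lowest with RefSeq-linked exons, at 2.02 CPM per kb. The highest subunit was 8.81 to 13.04 times the lowest within a library.

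All 4 kinases that phosphorylate eIF2 were detected. Eif2ak1, the heme-regulated kinase HRI, was the highest per kb in 3 of 3 libraries, with 145, 86.1 and 72.7 CPM, or 17.9 ± 6.78 CPM per kb. Eif2ak4, the amino acid sensor GCN2, followed by the mean with 27.8, 23.2 and 69.4 CPM, or 5.39 ± 3.41 CPM per kb. Per kb Eif2ak4 was above Eif2ak2 in 2 of 3 libraries, and below it in replicate 1. Eif2ak2, the double-stranded RNA sensor PKR, measured 25.7, 5.55 and 8.65 CPM, and Eif2ak3, the endoplasmic reticulum stress sensor PERK, 8.74, 4.41 and 11.997 CPM. The library order differed among the kinases, since Eif2ak1 and Eif2ak2 were highest in replicate 1, and Eif2ak3 and Eif2ak4 in replicate 3. Eif2a and Eif2d, which can deliver initiator tRNA without eIF2, measured 20.3, 85.3 and 43.0 CPM and 35.03, 33.4 and 65.4 CPM.

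The eIF3 complex, the largest of the initiation factors, had 13 of its 14 listed genes detected, and their levels were far from equal. Eif3h, Eif3a and Eif3c led with 53.6 ± 22.8, 47.6 ± 11.2 and 46.4 ± 18.6 CPM per kb, and these neighbours in the order did not keep it in all libraries. Eif3g and Eif3i, which encode peripheral subunits, followed at 27.5 ± 11.2 and 27.2 ± 9.27, then Eif3f at 22.4 ± 2.99 and Eif3k at 18.8 ± 2.81. At the low end were Eif3b, the scaffold of the peripheral module, at 6.22 ± 1.99, Eif3d, a subunit that can bind caps, at 3.25 ± 2.22, and Eif3j1, a loosely bound subunit, at 1.19 ± 0.61. Eif3b exceeded Eif3d, and Eif3d exceeded Eif3j1, in 3 of 3 libraries.

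The middle of that order changed with the exon length used. By the means with the exons of RefSeq-linked transcripts, Eif3i moved from 5th to 1st at 89.6 ± 30.6 CPM per kb and Eif3a stayed 2nd at 81.1 ± 19.2. Eif3e moved from 10th to 7th, from 6.86 ± 5.26 to 30.6 ± 23.5. Which gene was 1st by that length differed between libraries. Eif3b, Eif3d and Eif3j1 filled the last 3 places by either length. Of the exon bases of Eif3d, 43.3% lie under exons of an antisense gene, and 49.1% of the 50-base words of Eif3j1 are unique to it. Eif3j1 exceeded its near-identical copy Eif3j2 by 2.29 ± 1.30 on the log2 scale, but by −0.30 ± 1.30 when lengths were reduced to the unique share, so the order of these copies cannot be read from the counts.

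**Figure D2:**
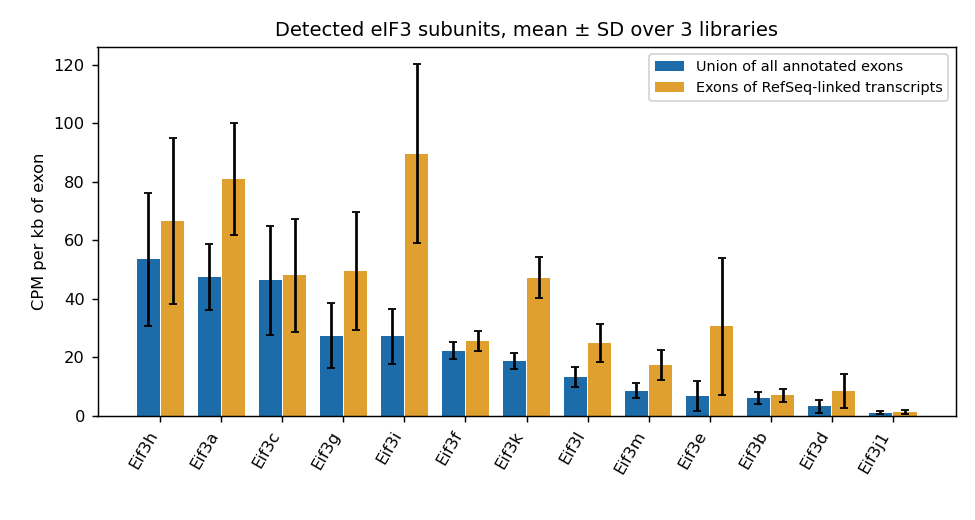
CPM per kb of exon of the 13 detected eIF3 genes, as bars of the mean with SD over 3 libraries, for lengths from all annotated exons and from exons of RefSeq-linked transcripts. By ratio, Eif3e (6.86 to 30.6) and Eif3i (27.2 to 89.6) move most between the lengths, and Eif3b, Eif3d and Eif3j1 have the lowest means by both.

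At the cap, the helicase gene Eif4a2 was more abundant than Eif4a1. Eif4a2, on the plus strand at chr16:23107444-23114136, measured 197, 373 and 185 CPM in replicates 1, 2 and 3. Eif4a1, on the minus strand at chr11:69666936-69672423, measured 111, 103 and 83.2 CPM. Per kb of all annotated exons each library had more Eif4a2, and the difference was widest in replicate 2. Per kb the levels were 47.1 ± 19.7 and 22.8 ± 3.28 CPM per kb, and the log2 difference of Eif4a1 to Eif4a2 was −0.98 ± 0.52, so that Eif4a2 was 1.97 times Eif4a1. With RefSeq-linked exons Eif4a2 was 1.35 times Eif4a1 and the higher in 2 of 3 libraries, the log2 difference being 0.018 in replicate 1. With unique lengths it was 1.63 times Eif4a1 and the higher in 3 of 3. Of the 50-base words of Eif4a1, 71.6% are unique to it, against 86.4% for Eif4a2, and 13.3% of the exon bases of Eif4a2 lie under exons of other genes, among them small nucleolar RNAs in its introns. Eif4a3, a helicase of the exon junction complex, measured 13.02 ± 4.53 CPM per kb.

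Of the eIF4G scaffolds, the relative that does not bind eIF4E had the highest level. Eif4g2, known as DAP5 and linked to cap-independent initiation, measured 948, 1303 and 655 CPM, or 95.3 ± 31.9 CPM per kb. Eif4g3 measured 532, 453 and 531 CPM, or 45.7 ± 4.09 CPM per kb. Eif4g1, which encodes the best known scaffold of the cap-binding complex, measured 118, 140 and 138 CPM, or 18.1 ± 1.63 CPM per kb. The order Eif4g2 over Eif4g3 over Eif4g1 held in 3 of 3 libraries and with RefSeq-linked exons. Eif4g1 minus Eif4g3 was −1.34 ± 0.24 and Eif4g1 minus Eif4g2 −2.35 ± 0.51 on the log2 scale, ratios of 2.53 and 5.09 in favour of the other gene.

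Among cap-binding proteins Eif4e, the rate-limiting one, measured 74.0, 115 and 56.99 CPM, or 13.7 ± 4.999 CPM per kb. Eif4e2, a homolog linked to repression, measured 54.3, 51.0 and 39.3 CPM, or 6.43 ± 1.05 CPM per kb, and lay below Eif4e by 1.04 ± 0.40 on the log2 scale in 3 of 3 libraries, a ratio of 2.06. With the longest transcript the ratio was 1.15 and Eif4e was the higher in 2 of 3 libraries, and with RefSeq-linked exons it was 1.52 and 3 of 3. Eif4e3 measured 52.7, 11.8 and 16.7 CPM, so its place among the 3 differed between libraries. The helicase partners Eif4b and Eif4h measured 47.6 ± 12.3 and 28.2 ± 8.11 CPM per kb. Their log2 difference of 0.76 ± 0.30 was positive in 3 of 3 libraries but was −0.051 ± 0.297 with RefSeq-linked exons and positive in 1 of 3, so by that length it is within its spread.

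The proteins that sequester eIF4E among the genes named Eif4ebp were represented almost wholly by Eif4ebp2, the form known as the main one in brain. Eif4ebp2 measured 218, 98.1 and 68.5 CPM in replicates 1, 2 and 3. Replicate 1 was high, at 3.17 times replicate 3. Eif4ebp1 stayed under 1 CPM in each library, and Eif4ebp1 minus Eif4ebp2 was −5.91 ± 0.96 on the log2 scale, a ratio of 60.04 in favour of Eif4ebp2, or 222 with RefSeq-linked exons. Eif4enif1, which encodes the eIF4E transporter 4E-T, had the narrowest range of the factors, with 81.9, 74.8 and 74.6 CPM.

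The factors of subunit joining were all detected. Eif5, the GTPase activator of eIF2, measured 192, 351 and 242 CPM, or 38.4 ± 11.9 CPM per kb. Eif5b, the GTPase that joins the subunits, measured 243, 368 and 209 CPM, or 27.99 ± 8.59 CPM per kb. Eif6, which keeps free large subunits from joining, measured 23.2, 52.3 and 20.2 CPM, or 11.8 ± 6.57 CPM per kb. All 3 were highest in replicate 2.

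**Figure D3:**
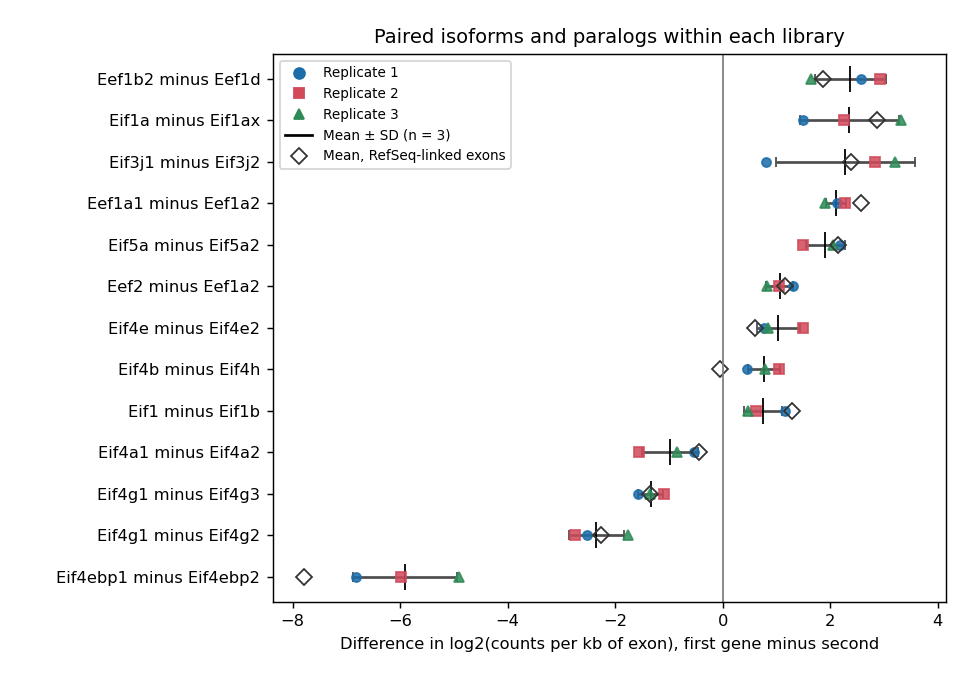
Within-library differences in log2(counts per kb of exon) for 13 pairs of factor genes, first gene minus second, with 1 symbol per library, the mean ± SD of 3 libraries, and open diamonds for the mean with RefSeq-linked exons. Every pair has 1 sign in the 3 libraries, and the diamond lies on the other side of 0 only for Eif4b minus Eif4h.

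The libraries differed in how much factor RNA they held. Of the 59 factors with a mean of 1 CPM or more, 27 (45.8%) had a highest library at least 2 times the lowest, against 56.3% of all 15336 such genes, a share below that of all genes at this limit. With a limit of 1.5 times the order of the shares turned, with 50 factors (84.7%) against 80.7% of all genes. With DESeq2 size factors both shares were 57.6%, and with a mean of 10 CPM or more they were 40.7% and 41.0%. Just inside that limit was Eif4a3 at 2.01 times, and just outside were Eif2b5 at 1.996 and Eif2ak1 and Eif4g2 at 1.99. The widest ranges among factors with a mean of 5 CPM or more were those of Eif2ak2 (4.63 times), Eif4e3 (4.46), Eif2a (4.19) and Eef2k (4.05). Leaving out a library cannot widen a gene's range, so a lower count without 1 replicate says nothing about that replicate by itself. The count was 16, 11 and 13 without replicates 1, 2 and 3, where all genes gave 34.9%, 35.4% and 35.2%.

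The direction of these differences was uneven. Replicate 3 had the lowest CPM for 38 of the 59 factors, against 27.5% of all genes, and the highest for 6, against 39.2% of all genes. Replicate 2 had the highest CPM for 30 of the 59, against 29.2% of all genes. With TMM library sizes replicate 3 was lowest for 40 of the 59 (34.3% of all genes) and replicate 2 highest for 33 (35.2% of all genes). With DESeq2 size factors these counts were also 40 (33.9% of all genes) and 33 (34.0%), and with library totals that leave out the 3 most abundant genes they were 35 (22.9%) and 29 (25.7%). Genes highest in replicate 2 included all 3 eIF2 subunits, 7 of 13 detected eIF3 genes and all 3 genes of subunit joining. Genes highest in replicate 1 included Eef2, Eef2k, Eif4ebp2, Eif4e3 and Eif2ak2, and those highest in replicate 3 were Eif2ak3, Eif2ak4, Eif2d, Eif3j1, Eef1d and Eef2kmt. With 1 library per level these patterns have no replicate.

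Other features of the libraries differed as well. The nuclear RNA Malat1 took 3.45%, 1.44% and 8.25% of assigned counts in replicates 1, 2 and 3, and reads in no counted feature made up 31.4%, 25.6% and 45.3% of all listed entries. Both were lowest in replicate 2 and highest in replicate 3, the reverse of the factors' share of counts. Summed neuronal markers were 11710, 17652 and 9493 CPM and summed endothelial markers 70.7, 97.1 and 53.6 CPM, both in the order of the factors' share. Most of the neuronal sum was Snap25, with 7606, 13126.5 and 6317 CPM. Syt1, Rbfox3, Tubb3 and Nefl had the same order as Snap25. Map2 and Syn1 were highest in replicate 1, and Eno2 was lowest there. Among the endothelial markers, Slc2a1, Flt1, Slco1a4 and Pecam1 had the order of the endothelial sum. Tek and Kdr were lowest in replicate 2, Emcn was highest in replicate 3, and Cldn5 was lowest in replicate 1. Microglial markers summed to 46.5, 22.2 and 34.5 CPM, lowest in replicate 2. Of these, Aif1 and C1qb were highest in replicate 2, and C1qa was lowest in replicate 1. Summed astrocyte markers were 2252, 1366 and 1340 CPM, and summed oligodendrocyte markers 425, 237 and 236 CPM; both were highest in replicate 1 and close in the other libraries, an order that the factors' share did not have. Gja1 of the astrocyte markers, and Mog and Cldn11 of the oligodendrocyte markers, were highest in replicate 2 instead. The part of any of these library features in the factor levels was not tested.

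**Figure D4:**
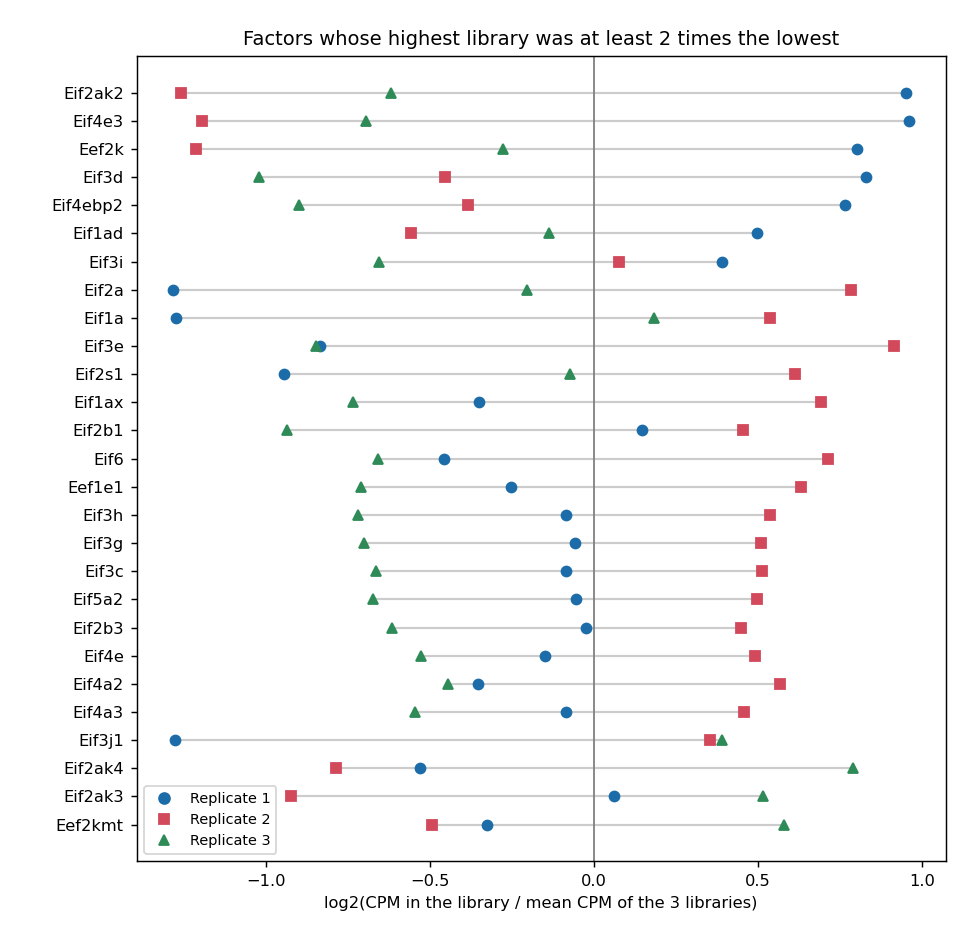
log2 of a library's CPM over the mean of the 3 libraries for the 27 factors whose highest library was at least 2 times the lowest, grouped by their highest library, with 1 symbol per library. The first 7 genes from the top are highest in replicate 1, the next 16 in replicate 2 and the last 4 in replicate 3.

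Other genes of the pathway were also present. All 13 genes that act on the capped messenger RNA or on eIF4A were detected, among them Pabpc1, the main cytosolic poly(A)-binding protein, at 223 ± 58.5 CPM and Larp1, which binds messenger RNAs of ribosomal proteins and factors, at 176 ± 7.81 CPM. All 9 genes of the TOR and S6 kinase pathway were detected, with Mtor at 124 ± 10.7 CPM. All 8 genes of termination, recycling and reinitiation and all 7 measured genes of hypusine and diphthamide synthesis, the modifications of eIF5A and eEF2, were detected. In the integrated stress response 6 of 7 measured genes were detected. Impact, a neuronal inhibitor of GCN2 activation, measured 395, 273 and 257 CPM, and Atf4, whose translation increases when eIF2 is phosphorylated, 59.3, 98.4 and 89.8 CPM. Ppp1r15a, the inducible phosphatase subunit that reverses eIF2 phosphorylation, measured 0.432, 2.11 and 8.08 CPM and was short of 1 CPM in replicate 1.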

How the data were processed

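Ribosome-bound RNA was immunopurified with antibodies to EGFP and sequenced as 3 libraries of 1 group, per the labels' protocols. The deposited files hold whole-number counts of reads per gene symbol, not normalized, for 32532 genes and 5 HTSeq summary classes. STAR 2.0.0e, HTSeq and mm10 are named in the submitters' processing notes; which annotation, kit and strand setting were used is not given in the sources used here. Whether a library pooled mice was not stated, so p-values refer only to these libraries. With 3 libraries a sign-flip p of 0.25 means that the 3 differences share 1 sign, whatever their size or spread. Summary classes stayed out of library sizes: 25.6% to 45.3% of entries lay in no feature, 16.5% to 32.7% aligned to more than 1 place and 1.26% to 1.98% were ambiguous. Whether reads of a gene and of an antisense or overlapping partner were kept apart depends on the annotation and strand setting, and is not known. Genes with copies read low, since reads aligned to more than 1 place were not counted.

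CPM was computed over all gene counts. Exon lengths, from the union of exons in GENCODE M21 (GRCm38, the assembly of mm10), were matched by symbol for all 63 factors and for 88.7% of the 15336 genes averaging at least 1 CPM. Pairs were compared by log2 differences of (counts + 0.5) per kb within a library, with an exact sign-flip permutation test. Shared sequence was the share of 50-base words found in another annotated gene's transcripts on either strand. Named genes were both members of each pair, the highest and lowest detected member of each group, the 10 highest per kb, up to 10 with the widest range at a mean of 5 CPM or more, and undetected members; other names were chosen after their values were seen, as were the promoter motifs. Members, lists and pairs were chosen with earlier results of these data known. Each pair of libraries differed in the counts of 18863 to 20181 genes. Sequences are from RefSeq (GRCm38.p6). The range count was tested on simulated data. Python 3.11.15, pandas 2.3.3, numpy 2.4.6, matplotlib 3.10.9 and R 4.3.3 were used, with edgeR 4.0.16 (TMM) and DESeq2 1.42.0 for library sizes only.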

Additional observations from a re-analysis of the deposited data

How the results depend on the processing

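Over the 13 pairs and 8 alternatives to each, the sign of the mean difference was kept in 101 of 104 cases. Eif4b minus Eif4h went from 0.76 to −0.051 on the log2 scale with the longest transcript and to −0.051 with RefSeq-linked exons, and Eif3j1 minus Eif3j2 from 2.29 to −0.30 with unique 50-base words. The alternatives were no length correction, the longest transcript, RefSeq-linked exons, unique words, 3 counts added and each replicate left out; RefSeq-linked exons and unique words were chosen after seeing the data. Without length correction the ratio moved by over 1.5 times for Eef1b2 to Eef1d (2.02), Eif5a to Eif5a2 (1.78), Eif1 to Eif1b (3.14), Eif4g3 to Eif4g1 (3.83), Eif3j1 to Eif3j2 (11.95), Eif4ebp2 to Eif4ebp1 (158) and Eef2 to Eef1a2 (3.32). The factor median went from 12.4 CPM per kb to 16.5 with the longest transcript and to 18.9 with RefSeq-linked exons, since these lengths are shorter; over other settings it was 11.2 to 14.5. Of 144 recomputed group medians 24 moved by more than their SD, 20 of them with another exon length. The number of detected factors was 56 to 60. A share of all listed genes is given only for 1 CPM in each library (39.3%), so this range has no background at the other settings. The 27 factors with a 2-times range became 50 at 1.5 times (84.7%, against 80.7% of all genes), 11 to 16 with 1 replicate left out (18.6% to 27.1%, against 34.9% to 35.4%), and 22 to 34 otherwise (39.0% to 57.6%, against 41.0% to 57.8%). No paired analysis was possible because there is 1 group of samples and no other group to pair it with. Lengths from words unique in the whole genome were not run. Replicate 3 had the least depth, and with 3 libraries no pair can reach a p below 0.25.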
